A study of Homo sapiens with 4 samples.

Results

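The HOX genes and the noncoding RNAs of their clusters were examined in 4 RNA-seq libraries of H9, a long-used line of human embryonic stem cells. The members were the rows of the deposited table named HOXA, HOXB, HOXC or HOXD with a number, the antisense RNAs named after these genes, and HOTAIR, HOTAIRM1 and HOTTIP. They numbered 55 of 60671 genes, 39 protein-coding HOX genes and 16 noncoding RNAs. The libraries formed 2 groups of 2, all grown in mTeSR medium without treatment. The control group was labelled only as control H9. The study compares its re-expressing cells with mock controls transfected with an empty vector, and the labels do not say whether these libraries are such cells or whether they share a clone. The other group carried the CFIm25 KO together with 3Flag-CFIm25 overexpression, which the study drove from a lentiviral EF1 promoter, and is called KO+OE here. The study describes its edited cells as clones with a low level of an N-terminally shortened CFIm25 rather than a full knockout, and the re-expressing line as made from 1 of these clones, so that the groups also differ by clone and lentivirus. Edited cells lacking the transgene were not analysed here. The comparison asks whether HOX RNA differed between the re-expressing line and control cells. Nothing in the labels says that replicates came from separate cultures, so that the spread between them may be technical.

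HOX genes encode homeodomain transcription factors that give cells along the head to tail axis of the embryo their positional identity. They lie in clusters on separate chromosomes, and in each cluster the order of the genes along the DNA follows the order in which they are switched on, from the 3′ end, where the genes of low number lie, to the 5′ end. The numbers name paralog groups, which are sets of related genes at the same position in different clusters. In undifferentiated embryonic stem cells the clusters are known as targets of Polycomb repression, and retinoic acid is known to switch on their 3′ genes. The antisense and intergenic RNAs of the clusters include HOTAIR, HOTTIP and HOTAIRM1, which have been linked to chromatin regulation of HOX genes.

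The values were read as TPM, a measure that scales a gene's reads by transcript length and sets each library to a common total. The deposited table names no unit, and the reading rests on decimals and near-equal column sums. The 4 libraries summed to between 986853 and 987078 TPM, listed 22177 to 22456 genes above 0, and gave no read counts, so that their depth is unknown and the precision comes from the replicates alone. NUDT21, which encodes CFIm25, was 156 ± 5.99 TPM for control and 159 ± 3.88 TPM for KO+OE (SD, n = 2 each), with a log2 fold change of 0.03 and an adjusted p = 0.980 from limma, so that its RNA gave no check of the labels. The stem cell markers POU5F1 (2164 to 2212 TPM), LIN28A (517 to 528 TPM), DNMT3B (216 to 225 TPM), TDGF1 (211 to 226 TPM), SOX2 (18.2 to 19.4 TPM) and NANOG (15.9 to 19.9 TPM) were present in every library. Of 10 germ layer markers, 9 had a mean under 1 TPM and SOX17 was listed at 0 throughout, while GATA6 was listed at 4.35 to 8.39 TPM. The summed level of these 10 genes was 7.10 and 9.31 TPM for control and 5.80 and 7.99 TPM for KO+OE. Of 8 fibroblast markers, LUM, DCN and COL3A1 were at 0 to 0.08 TPM, whereas THY1, which stem cells also carry, was at 1228 to 1352 TPM. COL1A1 was at 53.9 to 55.6 TPM, COL1A2 at 12.99 to 14.47 TPM, PDGFRB at 11.6 to 15.0 TPM and TWIST1 at 0.8 to 1.6 TPM. The summed level of the list was 1309 and 1434 TPM for control and 1376 and 1426 TPM for KO+OE.

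The promoters of 4 genes are shown first, since they carry the contrast that follows. HOXA7 had the highest HOX value of these libraries, HOXD1 is the 3′ gene of its cluster, HOXA13 has the HOX promoter window with the most CpG sites, and MTX2, a mitochondrial membrane protein gene beside HOXD, was expressed. Each window runs from 250 bases before to 50 bases after the annotated start in RefSeq on GRCh38.p14, is written 5′ to 3′ on the strand of the gene, and has every CpG dinucleotide in capitals. The windows lie at chr7:27156626-27156925 for HOXA7 and chr7:27200042-27200341 for HOXA13, both on the minus strand, and at chr2:176188418-176188717 for HOXD1 and chr2:176269192-176269491 for MTX2, both on the plus strand.
HOXA7: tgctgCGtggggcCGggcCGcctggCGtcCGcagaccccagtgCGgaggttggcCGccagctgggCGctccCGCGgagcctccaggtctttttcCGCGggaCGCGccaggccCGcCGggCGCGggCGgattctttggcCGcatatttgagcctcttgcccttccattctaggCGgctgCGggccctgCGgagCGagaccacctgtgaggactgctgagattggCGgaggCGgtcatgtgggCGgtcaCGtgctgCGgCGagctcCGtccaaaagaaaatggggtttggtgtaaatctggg
HOXA13: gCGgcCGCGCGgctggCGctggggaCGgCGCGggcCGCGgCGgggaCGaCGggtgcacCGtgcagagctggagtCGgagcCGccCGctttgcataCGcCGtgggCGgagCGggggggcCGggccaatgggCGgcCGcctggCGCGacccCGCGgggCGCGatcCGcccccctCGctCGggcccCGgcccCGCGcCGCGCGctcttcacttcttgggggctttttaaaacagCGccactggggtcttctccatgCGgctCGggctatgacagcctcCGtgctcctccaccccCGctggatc
HOXD1: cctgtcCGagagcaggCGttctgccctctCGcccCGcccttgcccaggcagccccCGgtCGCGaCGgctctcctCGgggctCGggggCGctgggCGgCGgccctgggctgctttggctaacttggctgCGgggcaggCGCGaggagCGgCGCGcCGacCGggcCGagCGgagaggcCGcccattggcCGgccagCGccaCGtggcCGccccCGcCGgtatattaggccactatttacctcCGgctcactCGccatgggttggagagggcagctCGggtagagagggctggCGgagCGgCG
MTX2: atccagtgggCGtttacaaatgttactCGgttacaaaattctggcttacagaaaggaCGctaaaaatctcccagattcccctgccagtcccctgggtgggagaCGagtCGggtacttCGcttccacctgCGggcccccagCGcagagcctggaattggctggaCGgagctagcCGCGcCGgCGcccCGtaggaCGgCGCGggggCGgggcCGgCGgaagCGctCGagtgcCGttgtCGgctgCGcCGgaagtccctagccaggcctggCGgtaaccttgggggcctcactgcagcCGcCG
The number of CpG sites was 31 for HOXA7, 44 for HOXA13, 36 for HOXD1 and 29 for MTX2. The mean levels over the 4 libraries were 0.0375, 0, 0.0075 and 8.21 TPM in the same order. These HOX windows were chosen for the reasons given and do not stand for the others. Over all windows of protein-coding HOX genes the number ran from 0, in a window of HOXA3, to 44, with a median of 22. Most of these windows thus had fewer CpG sites than MTX2, among them HOXD4 with 4 and HOXA2 and HOXB1 with 11 each.

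All 4 HOX clusters were listed at or near 0 in H9 cells. Of the 55 members, 48 were listed at 0 in every library and 0 were above 0 in all 4. The highest value of any member in any library was 0.10 TPM, and no member reached 1 TPM. Only 7 members had a value above 0 anywhere, or 12.7%, against 44.4% of all genes in the table. Of the 39 protein-coding HOX genes, 17.9% had a value above 0 in at least 1 library, against 86.3% of the other protein-coding genes. All 16 noncoding members were listed at 0 in all 4 libraries, while 38.6% of the other lncRNA genes had a value above 0. Protein-coding genes outside the clusters with the word homeobox in their description were more often listed. This text match was made after the values had been seen. It also took in PBXIP1 (23.1 to 25.3 TPM), which encodes a partner of homeobox proteins, so that the set is not homeobox genes alone. Of the 189 genes matched, 151 were above 0 in at least 1 library, 90 were above 0 in all 4, and 41 had a mean of at least 1 TPM. These shares are descriptions without a test.

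**Figure D1:**
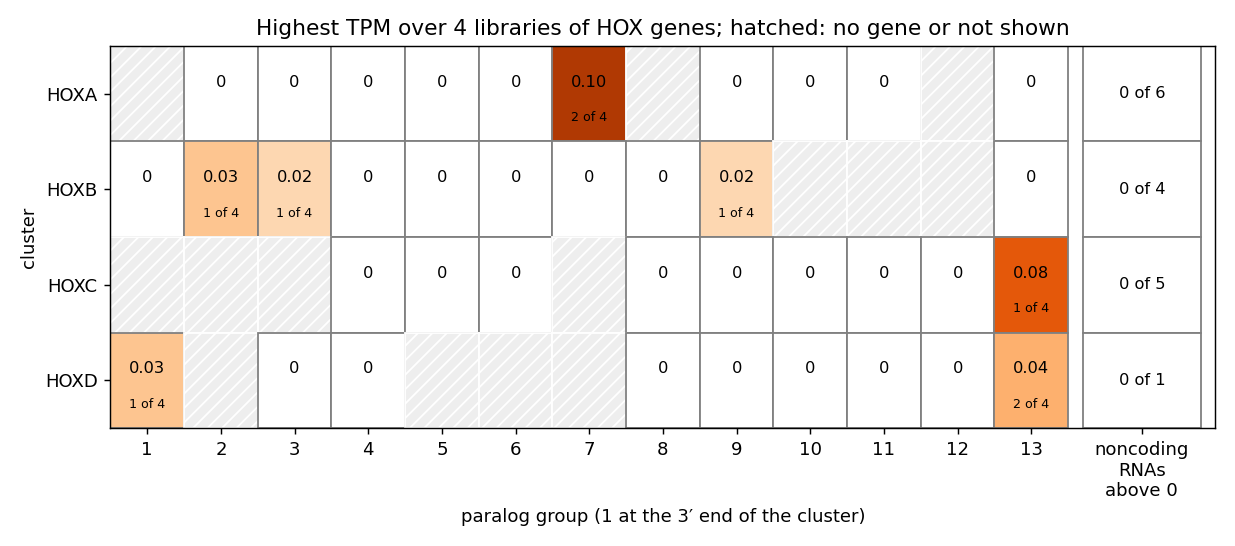
The grid shows HOX genes by cluster (rows) and paralog group (columns) with their highest TPM over the 4 libraries and, where above 0, the number of libraries with a value; hatched cells hold no gene or are not shown, and the last column counts noncoding RNAs above 0. The 7 values above 0 are scattered over paralog groups 1, 2, 3, 7, 9 and 13, and the highest is 0.10 TPM.

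The values above 0 were spread over the clusters and along them. HOXA held 1 of 17 members above 0, HOXB 3 of 14, HOXC 1 of 14 and HOXD 2 of 10. By position, 3 of the 12 genes of paralog groups 1 to 4 had a value above 0, as did 1 of the 11 genes of groups 5 to 8 and 3 of the 16 genes of groups 9 to 13. No stretch of neighbouring genes was listed together in any library except for HOXB2 and HOXB3. Among the members at 0 in every library were HOXB1, a 3′ gene known to respond early to retinoic acid, and HOXA2, HOXA3, HOXA4, HOXA5, HOXA6, HOXA9, HOXA10, HOXA11 and HOXA13. In HOXB they were HOXB4, HOXB5, HOXB6, HOXB7, HOXB8 and HOXB13. In HOXC they were HOXC4, HOXC5, HOXC6, HOXC8, HOXC9, HOXC10, HOXC11 and HOXC12, and in HOXD they were HOXD3, HOXD4, HOXD8, HOXD9, HOXD10, HOXD11 and HOXD12. The noncoding members at 0 were HOTAIRM1, HOTTIP, HOXA-AS2, HOXA-AS3, HOXA10-AS and HOXA11-AS in HOXA and HOXB-AS1, HOXB-AS2, HOXB-AS3 and HOXB-AS4 in HOXB. They were HOTAIR, HOXC-AS1, HOXC-AS2, HOXC-AS3 and HOXC13-AS in HOXC and HOXD-AS2 in HOXD.

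The members above 0 were then followed in each library. HOXA7 (ENSG00000122592), a gene of the middle of its cluster, is annotated at chr7:27153716-27156675 in RefSeq on GRCh38.p14. Control replicates 1 and 2 gave 0.10 and 0.05 TPM, and both KO+OE replicates gave 0. It was the only member whose groups did not overlap, with both control values above both KO+OE values, as in 15.4% of all genes above 0 in any library, while 12.4% had both KO+OE values on top. Of the 4312 genes of the table whose highest value lay above 0 and no higher than that of the members, 3.76% were likewise above 0 in both control and at 0 in both KO+OE libraries, and 4.62% showed the opposite. The share among the members above 0 was 1 of 7.

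HOXD13 (ENSG00000128714), the 5′ gene of its cluster and known for its role in the digits, is annotated at chr2:176087487-176095944. Control gave 0.02 and 0 TPM, KO+OE gave 0.04 and 0 TPM, so that each group held 1 library at 0 and the groups overlapped.

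The other 5 members were each above 0 in a single library. HOXC13, the 5′ gene of HOXC and known for its role in hair and nails, was listed at 0.08 TPM in KO+OE replicate 2. HOXB2, which acts in the hindbrain, and HOXD1 were listed at 0.03 TPM in the same library. HOXB3, also a hindbrain gene, was listed there at 0.02 TPM. HOXB9 was listed at 0.02 TPM in control replicate 2. Their positions are chr12:53938831-53946544 for HOXC13, chr17:48542655-48545109 for HOXB2, chr2:176188668-176190907 for HOXD1, chr17:48548870-48590241 for HOXB3 and chr17:48621156-48626358 for HOXB9. A value in 1 library alone was common at this level, since 51.2% of the 4312 genes were above 0 in a single library.

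**Figure D2:**
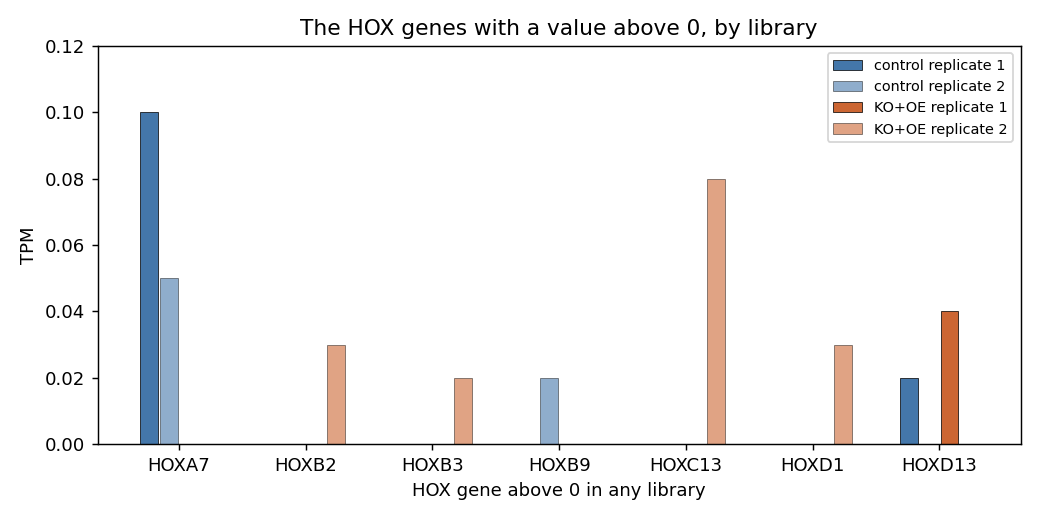
Bars give the TPM of the 7 HOX genes above 0 in each of the 4 libraries, 2 per group; a missing bar is a listed 0. HOXA7 has bars in both control libraries only, and 4 of the 7 genes have their bar in KO+OE replicate 2.

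Control replicates 1 and 2 each had 2 members above 0, KO+OE replicate 1 had 1 and KO+OE replicate 2 had 4. Over the 4312 genes of this level the counts above 0 were 1990, 1932, 1958 and 2126 in the same order, so that KO+OE replicate 2 had the most there too. Whether that library's larger number of weakly listed genes has a part in its HOX values was not tested. The summed level of all members was 0.12 and 0.07 TPM for control and 0.04 and 0.16 TPM for KO+OE. The KO+OE libraries thus lay on both sides of the control libraries, and the mean difference was 0.005 TPM. It was -0.055 TPM without KO+OE replicate 2 and 0.065 TPM without KO+OE replicate 1, so that its sign rested on which library was kept.

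By cluster, the summed HOXA level was 0.10 and 0.05 TPM in control and 0 in both KO+OE libraries, which is HOXA7 alone. The summed HOXB level was 0 and 0.02 TPM for control and 0 and 0.05 TPM for KO+OE, and that of HOXC was 0 in 3 libraries and 0.08 TPM in KO+OE replicate 2. The summed HOXD level was 0.02 and 0 TPM for control and 0.04 and 0.03 TPM for KO+OE. HOXA and HOXD were the clusters whose groups did not overlap, in opposite directions, and the HOXD sum joins HOXD13 in one KO+OE library with HOXD1 in the other. Among single genes above 0 in any library, 15.4% had both control values on top and 12.4% had both KO+OE values on top. Such a share was not computed for sums over clusters.

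These values were close to the smallest that the table gives. Among genes with a transcript within 10% of the length of the member and a value above 0 in the same library, the most frequent low value was 0.02 or 0.03 TPM in each case. HOXB2, HOXB9, HOXD1 and the control value of HOXD13 were at exactly that value, HOXB3 was below it, and the KO+OE value of HOXD13 was at 0.04 TPM against 0.02 TPM. HOXA7 was at 0.10 and 0.05 TPM against 0.03 TPM, and HOXC13 at 0.08 TPM against 0.02 TPM. Over all 9 values above 0, between 4.82% and 17.2% of such genes had a value as low or lower. The repeatability at this level was limited. Of genes at 0.01 TPM or more and below 0.05 TPM in one library, 55.9% to 59.5% were above 0 in the other replicate of the group. From 0.05 to 0.1 TPM the share was 65.7% to 69.1%, and from 1 to 5 TPM it was 98.4% to 98.6%. A listed 0 therefore does not show the absence of a HOX gene's RNA. With the depth and the counting of overlapping reads unknown, it also sets no firm upper limit on its level.

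The groups were compared with limma on log2(TPM + 1) over the 12319 genes whose mean reached 1 TPM. No HOX gene or cluster RNA reached that mean, so that 0 members were tested there. Among the genes tested, 0.00812% passed at an adjusted p of 0.05, and 5.33% did so before adjustment. Without the filter 26942 genes were tested, 7 of them members. None of the 7 passed an adjusted or an unadjusted p of 0.05 in limma, where 0% and 4.88% of all genes did. HOXA7 was lower in KO+OE by a log2 difference of -0.10 with a 95% confidence interval of -0.22 to 0.01, an unadjusted p = 0.0673 and an adjusted p = 0.873 from limma. The log2 difference of the other 6 ran from -0.01 for HOXB9 to 0.06 for HOXC13, with adjusted p-values from 0.873 to 0.948 in limma. The pseudocount of 1 lies far above these values and shrinks their differences, and with a pseudocount of 0.1 the HOXA7 difference was -0.79. With 2 libraries against 2, an exact two-sided permutation test of a single gene cannot go below 0.333. No difference in a HOX gene between the groups was detectable in these libraries.

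Whether the way reads were assigned affected the genes above 0 was not tested. By their whole spans in RefSeq on GRCh38.p14, introns included, 28 of the 55 members overlap another member and 22 overlap one on the opposite strand. HOXA7 overlaps HOXA-AS3, HOXB2 overlaps HOXB-AS1, HOXB3 overlaps HOXB-AS1, HOXB-AS2 and HOXB4, and HOXC13 overlaps HOXC13-AS. The sources used here do not say whether the libraries kept the strand or how reads in an overlap were counted. Whether exons of such pairs overlap was not examined, so that it is unknown whether their reads were told apart. Of the 27 members that overlap no other member, 3 were above 0 (HOXB9, HOXD1 and HOXD13), against 4 of the 28 that overlap.

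The other rows inside the clusters, pseudogenes and protein-coding genes among them, were also at or near 0. Between the outermost members of each cluster, 25 further rows had a position in the annotation used, and 1 was above 0. This was LINC02086, a long noncoding RNA between HOXB9 and HOXB13 that gave 0 and 0.11 TPM for control and 0.10 and 0.09 TPM for KO+OE. Its highest value was slightly above that of any member. HAGLR and HAGLROS, the noncoding RNAs of HOXD, and the microRNA genes MIR10A, MIR10B, MIR196A1, MIR196A2, MIR196B and MIR615 were at 0 in all 4 libraries. MIR10A and MIR196B were not among the 25 rows counted. Poly(A) selection and this library type do not capture mature microRNAs, so that their 0 says nothing of their level. The neighbouring homeobox genes EVX1 and EVX2 and the HOXB cluster genes PRAC1 and PRAC2 were also at 0 throughout.

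Protein-coding genes beyond the clusters were at higher levels than the members. Of the 42 protein-coding genes that lie outside the clusters and within 500 kb of them, 40 were above 0 in at least 1 library, 35 in all 4, and 25 had a mean of at least 1 TPM. Around HOXC, 14 of 20 genes had such a mean, among them HNRNPA1, a splicing factor, at 687 and 710 TPM for control and 716 and 715 TPM for KO+OE, and ATP5MC2, an ATP synthase subunit, at 629 and 637 TPM for control and 613 and 629 TPM for KO+OE. HNRNPA1 has many near-identical pseudogenes, so that its level is uncertain. SMUG1, a DNA repair enzyme, was at 16.5 and 17.7 TPM for control and 14.6 and 16.0 TPM for KO+OE. Around HOXB, 9 of 16 genes reached such a mean, among them CBX1, a heterochromatin protein, at 21.7 and 20.6 TPM for control and 23.2 and 22.6 TPM for KO+OE. The highest of the 16 was ATP5MC1, at 273 and 274 TPM for control and 260 and 272 TPM for KO+OE.

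The HOXA and HOXD clusters lie in gene-poor regions, with 1 of 3 genes at a mean of at least 1 TPM each. Beside HOXA this was HIBADH, an enzyme of valine breakdown, at 8.56 and 9.26 TPM for control and 9.72 and 9.15 TPM for KO+OE, while SKAP2 was at 0.07 to 0.45 TPM. Beside HOXD it was MTX2, at 7.27 and 7.53 TPM for control and 8.42 and 9.61 TPM for KO+OE, while LNPK was at 0.11 to 0.54 TPM. Of the 22 flanking genes listed for comparison, 13 were tested, 7 higher and 6 lower in KO+OE, and 0 passed an adjusted or an unadjusted p of 0.05 in limma. Their median log2 fold change was 0.04, against -0.01 over all genes tested.

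**Figure D3:**
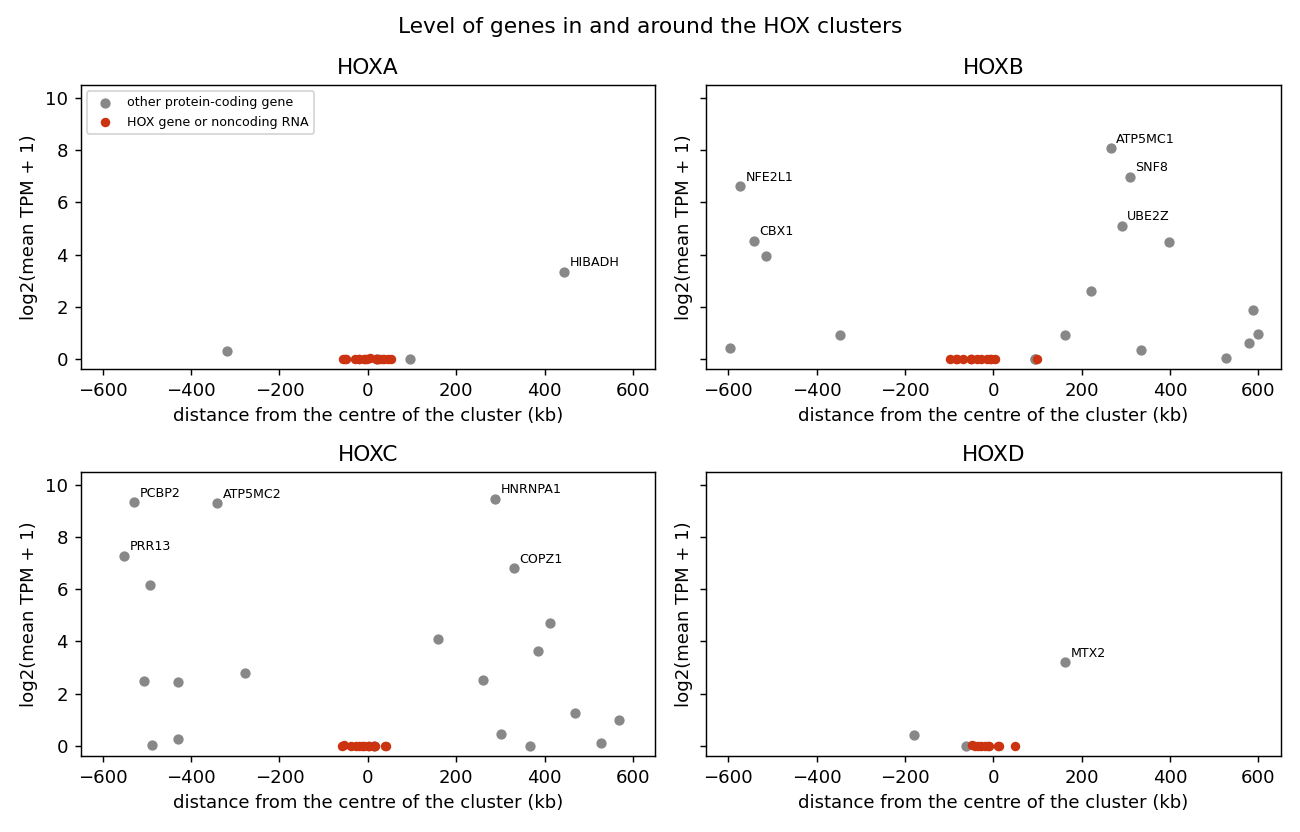
Each point is a gene, with its distance from the centre of the cluster in kb on the horizontal axis and log2(mean TPM + 1) over the 4 libraries on the vertical axis; HOX genes and cluster RNAs are in colour and other protein-coding genes in grey. All coloured points lie at the bottom of each panel, while HNRNPA1 and ATP5MC2 beside HOXC and HIBADH and MTX2 beside the other clusters lie above them.

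Most of the HOX gene promoters examined, nearly all of HOXA or HOXD, were rich in CpG. A window was called CpG-rich at a G and C content over 50% and a ratio of observed to expected CpG over 0.6. RefSeq windows were found for 29 of the 55 members. Of the 20 protein-coding HOX genes among them, 16 had a CpG-rich window, or 80.0%. These 20 were unevenly spread, with 9 HOXA, 8 HOXD and 2 HOXC genes and 1 HOXB gene, so that the share describes mainly HOXA and HOXD. This was close to the 87.4% of other protein-coding genes whose mean reached 1 TPM and far from the 13.1% of other protein-coding genes at 0 in all libraries. The 3 genes with both a window and a value above 0, HOXA7, HOXD1 and HOXD13, were all CpG-rich. Of the 9 noncoding members with a window, 1 was CpG-rich, HOTTIP, which starts beside HOXA13 on the opposite strand. The exceptions among the protein-coding genes were HOXA2, HOXA9, HOXB1 and HOXD4, of which HOXA2 and HOXA9 missed the limit on G and C content alone. HOXD13 was only just inside the limit on the ratio, at 0.60015. HOXC4 and HOXC5 share 1 window. These are descriptions without a test.

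**Figure D4:**
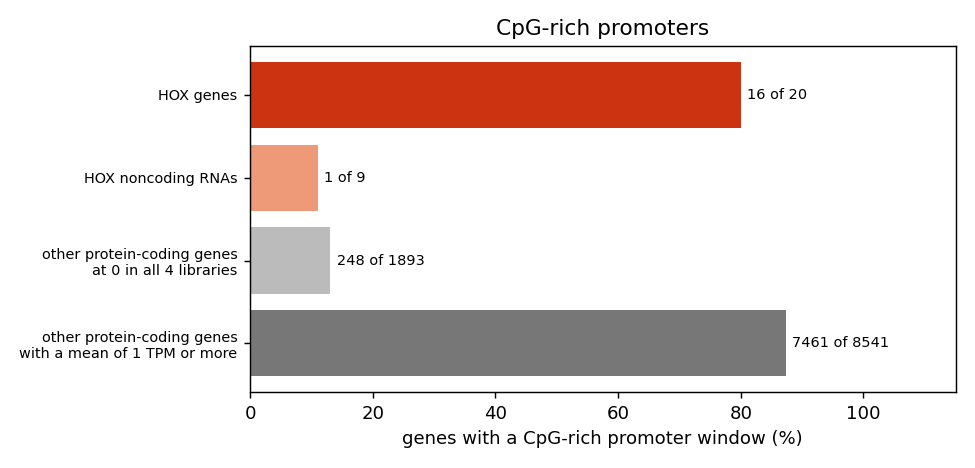
Bars give the percentage of genes with at least 1 CpG-rich promoter window in 4 sets, with the number of genes beside each bar. HOX genes, at 16 of 20 and mainly of HOXA and HOXD, stand near expressed protein-coding genes and above other protein-coding genes at 0, at 248 of 1893.

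Lists of HOX partners and regulators were read in the same libraries. TALE homeodomain proteins bind DNA together with HOX proteins. Of 9 such genes, 7 had a mean of at least 1 TPM, led by PBX2 (51.7 ± 2.47 TPM for control and 52.2 ± 0.304 TPM for KO+OE) and MEIS3 (48.4 ± 0.658 and 48.0 ± 3.27 TPM; SD, n = 2 each). MEIS1 and MEIS2, which are HOX targets as well as partners in many tissues, were at 0 to 0.05 TPM. Of the ParaHox genes, the sister group of the HOX clusters, 0 of 6 reached a mean of 1 TPM. CDX1, CDX2 and CDX4, which act upstream of HOX genes in the trunk, had highest values of 0.27, 0.27 and 0.13 TPM.

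Genes of retinoic acid signalling were present for the most part, 11 of 18 at a mean of at least 1 TPM. The binding proteins CRABP1 and CRABP2 were at 419 to 449 TPM and at 104 to 110 TPM. The receptor RARG was at 27.4 to 32.4 TPM, RARA at 8.55 to 9.61 TPM and RXRB at 13.1 to 14.8 TPM. RARB, a receptor gene that is itself induced by retinoic acid, was at 0 in both control libraries and at 0.04 TPM in both KO+OE libraries, a pattern that 4.62% of the 4312 genes of low level shared. CYP26A1, the retinoic acid degrading enzyme, was at 1.72 and 1.77 TPM for control and 2.04 and 2.29 TPM for KO+OE, with an adjusted p = 0.942 from limma, and its groups did not overlap, as in 12.4% of genes above 0 in any library in this direction.

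All 22 Polycomb genes were above 0 in all 4 libraries, as were 75.6% of all protein-coding genes other than the members. Of the 22, 18 were tested. BMI1 had the lowest mean of the list, at 0.03 to 0.13 TPM, a level like that of the HOX values above 0. PHC1, a subunit of Polycomb repressive complex 1, was at 252 ± 9.91 TPM for control and 257 ± 10.3 TPM for KO+OE, and RBBP7 and RBBP4, histone-binding subunits, were at 71.7 ± 3.86 and 60.4 ± 4.72 TPM for control and 72.6 ± 4.38 and 67.4 ± 0.184 TPM for KO+OE (SD, n = 2 each). The catalytic subunit EZH2 was at 2.38 to 3.08 TPM, EED at 2.48 to 3.17 TPM and SUZ12 at 0.49 to 0.62 TPM. All 9 genes of the trithorax side were tested, led by WDR5 (33.3 to 36.3 TPM), MEN1 (28.7 to 31.3 TPM) and DPY30 (22.2 to 29.6 TPM).

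Over these lists 45 of 64 genes were tested, 16 higher and 29 lower in KO+OE, with a median log2 fold change of -0.03 against -0.01 over all genes tested. None passed an adjusted p of 0.05 in limma, where 0.00812% of all genes did, and 1 passed an unadjusted p of 0.05, where 5.33% did. This was ASH2L, a core subunit of the methyltransferase complexes that mark active promoters. It was at 20.4 and 18.1 TPM for control and 16.4 and 15.3 TPM for KO+OE, without overlap, as in 15.4% of genes above 0 in any library in this direction, with a log2 fold change of -0.26, a 95% confidence interval of -0.49 to -0.03, an unadjusted p = 0.0329 and an adjusted p = 0.928 from limma. In limma its unadjusted p was 0.154 without control replicate 1, and 0.0645 or 0.146 when KO+OE replicate 1 or 2 was omitted. With all libraries its unadjusted p was 0.0551 in limma without the prior that depends on the mean, and 0.0237 with the replicate block. Under the other pseudocounts, filters and scalings it was 0.0298 to 0.0411 in limma. The adjusted p over these alternatives was 0.865 to 0.940 in limma.

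**Figure D5:**
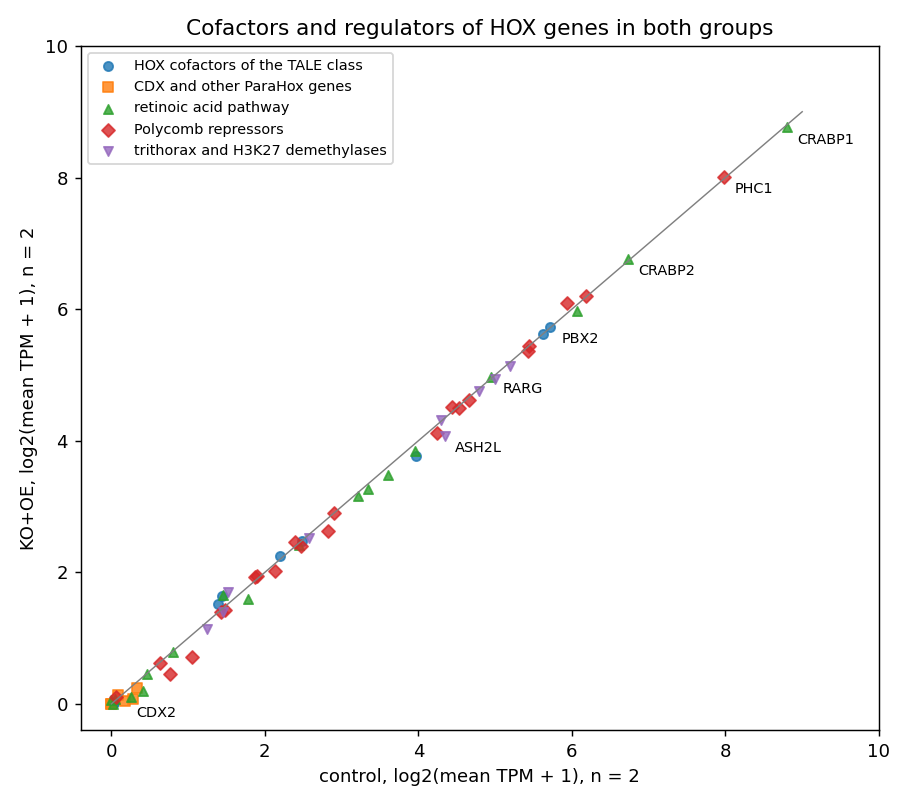
Each point is a gene of 5 lists of HOX cofactors and regulators, with log2(mean TPM + 1) in control on the horizontal axis and in KO+OE on the vertical axis (n = 2 each); the line marks equal levels. The points lie along the line from the ParaHox genes near 0 up to CRABP1, with ASH2L a little below it.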

How the data were processed

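Poly(A) RNA of 4 H9 libraries was sequenced. The deposited table gives 1 value per gene and library without naming a unit. The deposited values were read as TPM, since they hold decimals and each column sums to nearly the same total. The submitters' processing notes name hg38, HISAT2, featureCounts, Subread and DESeq2 without their roles, and rounding was to 2 decimals. No counts were given, so count tests were not used, and 0 columns of other samples were present.

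Columns were matched to samples by a letter, c for control and f read as Flag, and the replicate number, and groups came from the sample titles. They were compared with limma 3.58.1 in R 4.3.3 on log2(TPM + 1), two-sided, with a term for group alone and a prior that depends on the mean, over genes whose mean reached 1 TPM. Benjamini-Hochberg adjustment covered every gene tested. Simulated data served to test the limma step. They covered only genes whose mean reached 1 TPM, so that they say nothing of the members. Intervals are limma's at 95%. Genes named were the members, the 3 highest genes of each list, those past an unadjusted p of 0.05 and flanking genes; others were named after their values were seen. The members and lists were chosen with earlier results of these data known. Gene types, lengths and distances came from GENCODE release 44 on GRCh37 by identifier, and positions and promoters from RefSeq on GRCh38.p14 by symbol. Python 3.11.15 with pandas 2.3.3 and numpy 2.4.6 was used for tables. Some genes that this rule names are not reported here. Protein sequences were not analysed here.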

Additional observations from a re-analysis of the deposited data

How the results depend on the processing

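No member passed an adjusted or unadjusted p of 0.05 in limma under any alternative, but members were tested only without the filter, so that the other alternatives say nothing of them. The count of members above 0 anywhere was 2 at 0.05 TPM or more, 1 at 0.1 TPM and 0 at 1 TPM, and ran from 3, without KO+OE replicate 2, to 7 when 1 library was left out. No member was above 0 in all libraries under these settings. The count of all genes past an adjusted p of 0.05 was 1; it was 0 with pseudocounts of 0.1 and 5, without a filter, with filters at a mean of 0.1 and 5 TPM, with quantile normalization and with the replicate block, and ran from 0 to 9 (without control replicate 2) over the comparisons that left out 1 library, where a lone library is assumed to vary like the other group. The causes were not tested. Libraries of the same number showed no shared deviation, as deviations from the group means correlated at -0.049 between them. This cannot show whether they were handled in pairs, which the labels do not say. Under the replicate block, 0 of all genes and 0 regulators passed an adjusted p of 0.05, and 673 genes an unadjusted p of 0.05. The summed TPM of the members, KO+OE minus control, ran from -0.055 to 0.065 when 1 library was left out. The NUDT21 log2 fold change reversed to -0.012 when control replicate 2 was omitted and was at most 0.066 with another library omitted. The HOXA7 log2 difference was -0.79 and -0.021 with pseudocounts of 0.1 and 5.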

Other observations

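Genes outside the clusters that were matched by the word homeobox gave a contrast to the members. Those with the highest levels were POU5F1, a core pluripotency factor, at 2164 to 2212 TPM, uncertain through its pseudogenes, and TGIF1, a repressor of retinoid and SMAD signalling, at 239 to 265 TPM. EMX1, known from the forebrain, was at 29.3 and 28.9 TPM for control and 25.8 and 26.9 TPM for KO+OE, without overlap, as in 15.4% of genes above 0 in any library. CUX1 was at 21.4 to 25.1 TPM. The choice of these genes was made with their values in view.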
